A study of Mus musculus with 6 samples.

Results

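Genes of glycolysis and of the response to low oxygen were followed in C2C12 cells, a mouse myoblast line that fuses into contractile myotubes when serum is lowered. A list of 34 genes was used, 23 for glucose and lactate transport, glycolytic enzymes and the fate of pyruvate, and 11 for oxygen sensing and hypoxia targets. Of these genes 32 had a probe set naming them alone, 21 of the glycolysis list and 11 of the hypoxia list, and together they held 66 of the 45033 probe sets used. Gpi1 and Eno1 were not measured by a probe set of their own. The members were listed by symbol, and earlier results of these data were known when they were chosen.

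The knockdown group held 3 arrays of cells transfected with a short hairpin RNA (shRNA) against PRDM2, and the control group held 3 arrays of cells transfected with an shRNA against GFP, the green fluorescent protein of jellyfish. PRDM2 belongs to the PR domain family and is a histone H3 lysine 9 methyltransferase. All cells were C2C12 kept for 28 hours in medium with 2% horse serum, and 1 Affymetrix mouse array was hybridised per sample. The comparison asks how expression in differentiating cells differs when PRDM2 is targeted.

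Glycolysis takes up glucose through facilitative transporters, traps it by phosphorylation with a hexokinase, commits it at phosphofructokinase and splits it with aldolase. Pyruvate kinase completes the pathway, after which pyruvate is reduced to lactate and exported by monocarboxylate transporters or oxidised in mitochondria, a choice gated by pyruvate dehydrogenase kinases. Differentiating muscle uses muscle isoforms of several of these enzymes. When oxygen is low, the prolyl hydroxylases encoded by the Egln genes no longer mark HIF-1 alpha for degradation, and HIF-1 then binds a short core motif in the promoters of many of the same glycolytic genes and of hypoxia targets.

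The promoters of 5 members are shown, with the HIF core motif in capitals. The first 4 belong to genes that passed the test in a paired fit without both arrays numbered 2. Of the other genes that passed it and are not shown, Eno2 held no match, Pdk1 held 1 in one of its windows and none in the other, and Slc2a3 had no window. Bnip3, also shown, is a hypoxia target that did not pass any test. Each run covers the 250 bases before the gene's start in RefSeq (GRCm38.p6), read along the gene's strand. Positions are chr13:6648772-6649021 on the minus strand for Pfkp, chr12:54203875-54204124 on the minus strand for Egln3, chr3:104638414-104638663 on the plus strand for Slc16a1, chr4:119108495-119108744 on the plus strand for Slc2a1 and chr7:138909507-138909756 on the minus strand for Bnip3.
Pfkp: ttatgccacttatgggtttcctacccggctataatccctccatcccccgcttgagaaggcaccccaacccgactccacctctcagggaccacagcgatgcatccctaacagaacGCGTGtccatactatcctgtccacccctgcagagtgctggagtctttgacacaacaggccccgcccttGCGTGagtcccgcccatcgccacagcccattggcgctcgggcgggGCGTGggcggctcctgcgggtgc
Egln3: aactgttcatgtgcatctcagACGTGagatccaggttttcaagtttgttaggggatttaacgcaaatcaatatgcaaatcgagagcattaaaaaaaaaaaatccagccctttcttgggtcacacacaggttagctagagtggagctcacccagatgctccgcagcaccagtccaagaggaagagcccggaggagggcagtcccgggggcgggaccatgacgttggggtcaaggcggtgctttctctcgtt
Slc16a1: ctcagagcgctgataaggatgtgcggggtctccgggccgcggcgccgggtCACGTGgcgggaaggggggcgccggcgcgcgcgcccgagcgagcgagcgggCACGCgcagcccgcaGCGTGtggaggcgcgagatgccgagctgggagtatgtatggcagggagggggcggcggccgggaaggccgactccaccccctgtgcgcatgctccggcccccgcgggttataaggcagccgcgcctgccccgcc
Slc2a1: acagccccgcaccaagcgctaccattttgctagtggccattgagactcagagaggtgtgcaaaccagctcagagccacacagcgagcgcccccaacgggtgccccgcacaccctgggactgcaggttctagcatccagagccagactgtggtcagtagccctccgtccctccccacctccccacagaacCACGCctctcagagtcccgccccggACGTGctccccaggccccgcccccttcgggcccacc
Bnip3: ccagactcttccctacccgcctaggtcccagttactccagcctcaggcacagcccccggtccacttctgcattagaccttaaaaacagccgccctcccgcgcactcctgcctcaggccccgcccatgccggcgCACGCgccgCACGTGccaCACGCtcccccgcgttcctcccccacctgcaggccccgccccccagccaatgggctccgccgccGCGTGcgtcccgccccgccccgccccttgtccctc

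The motifs searched were ACGTG and GCGTG on both strands, and a match of ACGTG on both strands at once, CACGTG, was counted as 1. Pfkp held 3 matches, Egln3 1, Slc16a1 3, Slc2a1 2 and Bnip3 4. RefSeq gave 46 such windows for 33 of the 34 listed genes, some genes having several starts, and Slc2a3 had none in the table. At least 1 match lay in 36 of the 46 windows (78.3%), in 25 of 34 glycolysis windows (73.5%) and in 11 of 12 hypoxia windows (91.7%). Of the 18108 windows of genes measured on the arrays 48.9% held a match, as did 38.6% of all 32851 windows. Some windows of the same gene, as for Eno1, Aldoa and Pfkm, overlap and share bases. Counted by gene, 29 of the 33 listed genes held a match, against 7749 of 14451 genes measured on the arrays. Hypoxia targets were listed as such, so their share is not independent of that choice. Eno2, Tpi1, Pgam2 and Gpi1 held no match in this window, and the 4 shown from that fit were not chosen independently of the motif. The motif contains CG, and the base composition of the windows was not matched. A match is a description of letters and not a binding site.

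Median intensity per array was 10.7 to 11.4 units, and 3 arrays per group limit the precision. Values are given as intensities after quantile normalization or as log2(intensity + 16), and levels were not compared between members. Prdm2 itself was not lower on the knockdown arrays, with a log2 fold change of 0.15 (SE 0.19), so every direction rests on the labels. The array labelled control replicate 2 stood apart from control replicates 1 and 3, and its nearest array was knockdown replicate 2. Over the 32 members the mean absolute log2 difference between those 2 arrays was 0.07, the smallest of the 15 pairs, while the other 14 pairs lay between 0.20 and 0.41. In 25 of the 32 members control replicate 2 lay closer to the average of the knockdown arrays than to that of control replicates 1 and 3, as it did in 67.8% of all genes. Results are therefore given with and without it. Muscle markers fixed as a list, such as Myog and Acta1, averaged between 10.79 and 10.88 log2 units on the knockdown arrays, and 10.59, 10.79 and 10.83 in control replicates 1, 2 and 3. The 6 endothelial markers summed to between 31.0 and 58.0 units on knockdown arrays and between 24.4 and 71.5 on control arrays, and the 4 measured adipocyte markers to between 5.60 and 15.3 and between 7.60 and 19.6. The 6 macrophage markers summed to between 87.6 and 195 units and between 92.7 and 169. Ptprc and Cd68 were near the floor, but Csf1r read between 34 and 144 units over all arrays and Adgre1 between 16.7 and 37.1. Of the endothelial markers, Emcn read between 11.3 and 52.3 units. In bulk RNA, fewer cells of a kind and less RNA per cell cannot be told apart.

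With all 6 arrays 0 members passed the threshold of an adjusted p of 0.05 in limma, and neither did any other gene (background 0% of 18192 genes). At an unadjusted p under 0.05 there were 4 of 32 members, 1 higher (Aldoc) and 3 lower (Slc16a1, Pfkp and Eno2), against 1.19% of all genes higher and 2.11% lower. In the glycolysis list 13 of 21 members were on the lower side, beside 9301 of 18192 over all genes. Its median log2 fold change was -0.07, beside -0.0033 over all genes. The hypoxia list was split, with 6 of 11 genes negative and its median at -0.02. Values did not overlap between the groups in 2 members, Aldoc on the higher and Slc16a1 on the lower side, against a background of 2.93% higher and 4.24% lower over all genes. Blocking on the replicate number again gave 0 calls, and 7 members at an unadjusted p under 0.05, 2 higher and 5 lower, against 4.45% and 4.56% of all genes.

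Pfkp and Egln3 were the only members past the threshold when control replicate 2 was left out. In that fit Pfkp, the platelet-type phosphofructokinase, fell by 1.08 on the log2 scale, and Egln3, a HIF prolyl hydroxylase that is itself a HIF target, rose by 0.99. In that fit 163 of 18192 genes passed as higher (0.896%) and 127 as lower (0.698%). With every probe set tested separately, Pfkp still passed without control replicate 2 (adjusted p = 0.046) and Egln3 did not (adjusted p = 0.075). No member passed when any 1 of the other 5 arrays was left out. The fit was picked out after the arrays had been compared, so its p-values are optimistic. With both arrays numbered 2 left out and the replicate number as a block, 7 members passed. Egln3 and Slc2a3 were higher and Slc2a1, Slc16a1, Pfkp, Eno2 and Pdk1 lower, against a background of 2.27% higher and 1.69% lower. That fit has 2 arrays per group, leaves out the pair with the smallest differences and takes its pairing from the data, so its p-values are optimistic too. Without the block it called 0 members, with 0.346% of all genes higher and 0.28% lower.

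**Figure D1:**
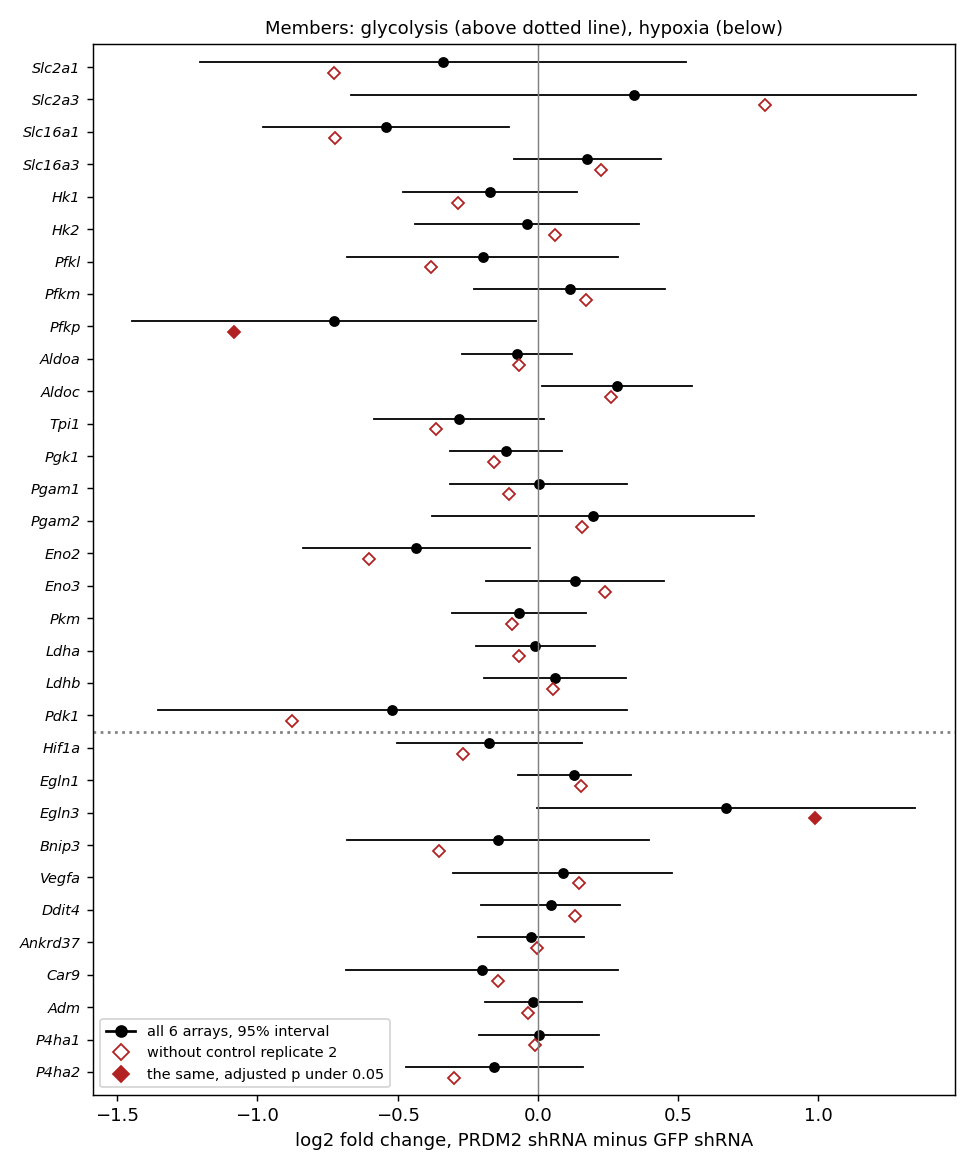
Log2 fold changes (PRDM2 shRNA minus GFP shRNA) of the 32 measured members, with black points and 95% intervals for all 6 arrays and diamonds for the fit without control replicate 2, filled where the adjusted p was under 0.05. Only Pfkp, at -1.08, and Egln3, at 0.99, are filled.

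Among the transporters, Slc16a1, the monocarboxylate transporter MCT1 that carries lactate and pyruvate, separated the groups on every array. It read 159, 198 and 194 units in knockdown replicates 1, 2 and 3, against 281, 209 and 347 in control replicates 1, 2 and 3. All 3 knockdown arrays lay below all 3 control arrays, although knockdown replicate 2 and control replicate 2 nearly met. Its log2 fold change was -0.54 (SE 0.18, 95% interval -0.98 to -0.10, adjusted p = 1.00). Without control replicate 2 it was -0.72 (SE 0.14, adjusted p = 0.070), short of the threshold, and without both arrays numbered 2 in the paired fit -0.78 (SE 0.09, adjusted p = 0.014). It shrank to -0.38 without control replicate 3 and to -0.45 without knockdown replicate 1. Its other probe set read at most 4.10 units and is uninformative.

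Slc2a1 encodes GLUT1, the basal glucose transporter of most cells. It read 389, 219 and 273 units in knockdown replicates 1, 2 and 3, against 544, 207 and 430 in control replicates 1, 2 and 3. The groups overlapped because control replicate 2 was the lowest of all 6 arrays. On the log2 scale the groups differed by -0.34 (SE 0.36) with all arrays, -0.73 (SE 0.23, adjusted p = 0.24) without control replicate 2 and -0.55 (SE 0.10, adjusted p = 0.042) in the paired fit without both arrays numbered 2. It shrank to -0.06 without control replicate 1 and to -0.16 without knockdown replicate 2. All 3 of its probe sets gave similar values, from -0.34 to -0.29 with all arrays.

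Slc2a3, the high-affinity glucose transporter GLUT3, had the opposite sign at a low level. Its brightest probe set read 15.2, 41.9 and 21.8 units in knockdown replicates 1, 2 and 3, against 6.70, 45.6 and 8.00 in control replicates 1, 2 and 3. Here both arrays numbered 2 were high, and outside them the knockdown arrays were above the control arrays. The fitted log2 change came to 0.34 (SE 0.42) with all arrays, 0.81 (SE 0.25, adjusted p = 0.22) without control replicate 2 and 0.56 (SE 0.10, adjusted p = 0.043) in the paired fit without both arrays numbered 2. It shrank to 0.09 without control replicate 1, 0.13 without control replicate 3 and 0.09 without knockdown replicate 2. Its size is understated by the offset of 16. Slc16a3, the lactate exporter MCT4, stayed between 11.3 and 19.6 units on all arrays, at 0.18 (SE 0.11).

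The phosphofructokinase isoforms catalyse the committed step of glycolysis, and their values are given in turn. Pfkp read 191, 175 and 145 units in knockdown replicates 1, 2 and 3, against 412, 171 and 343 in control replicates 1, 2 and 3. Control replicates 1 and 3 were far above every knockdown array, and control replicate 2 lay inside the knockdown range. This gave a log2 fold change of -0.73 (SE 0.30, 95% interval -1.45 to -0.0049, adjusted p = 1.00) with all arrays, -1.08 (SE 0.14, adjusted p = 0.027) without control replicate 2 and -1.10 (SE 0.10, adjusted p = 0.0056) in the paired fit without both arrays numbered 2. Without control replicate 1 it shrank to -0.48. A dimmer second probe set of Pfkp gave -0.41 (SE 0.14) with all arrays and did not overlap between the groups, and another, at most 6.40 units, gave -0.08.

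Pfkl, the liver-type subunit, read 408, 388 and 562 units in knockdown replicates 1, 2 and 3, against 583, 394 and 590 in control replicates 1, 2 and 3, a log2 fold change of -0.20 (SE 0.20). Pfkm, the muscle subunit, read 486, 525 and 494 units in knockdown replicates 1, 2 and 3, against 369, 504 and 532 in control replicates 1, 2 and 3. Its groups differed by a log2 fold change of 0.11 (SE 0.14), its lowest value was in control replicate 1, and without that array the sign turned to -0.04. Neither subunit passed in any fit run, and the difference between the isoforms was not tested.

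Hexokinases and the enzymes between them and pyruvate showed smaller differences. Hk1, the broadly expressed hexokinase, read 375, 393 and 459 units in knockdown replicates 1, 2 and 3, against 491, 391 and 509 in control replicates 1, 2 and 3 (log2 fold change -0.17, SE 0.13). Hk2, the inducible hexokinase typical of muscle, read 204, 258 and 194 units in knockdown replicates 1, 2 and 3, against 177, 260 and 242 in control replicates 1, 2 and 3. It stood at -0.04 (SE 0.17) with all arrays and turned to 0.06 without control replicate 2. Aldoa, the muscle aldolase, stood at -0.08 (SE 0.08), with a range of 1917 to 2202 units on the knockdown arrays and of 2169 to 2219 on the control arrays. One of its 5 probe sets pointed the other way, at 0.05.

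Aldoc, an aldolase best known from brain, read 30.7, 20.2 and 23.9 units in knockdown replicates 1, 2 and 3, against 19.6, 16.4 and 16.4 in control replicates 1, 2 and 3. All knockdown arrays lay above all control arrays, in a range close to the offset. Its log2 fold change was 0.28 (SE 0.11, adjusted p = 1.00), 0.26 (SE 0.13, adjusted p = 0.48) without control replicate 2 and 0.18 without knockdown replicate 1. Tpi1, triosephosphate isomerase, read 1345, 1614 and 1722 units in knockdown replicates 1, 2 and 3, against 1910, 1684 and 2092 in control replicates 1, 2 and 3. Only knockdown replicate 3 reached above the lowest control array. Its groups differed by a log2 fold change of -0.28 (SE 0.13), with its other 2 probe sets at -0.28 and -0.24, and -0.36 (SE 0.13, adjusted p = 0.29) without control replicate 2. Without knockdown replicate 1 it was -0.18.

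**Figure D2:**
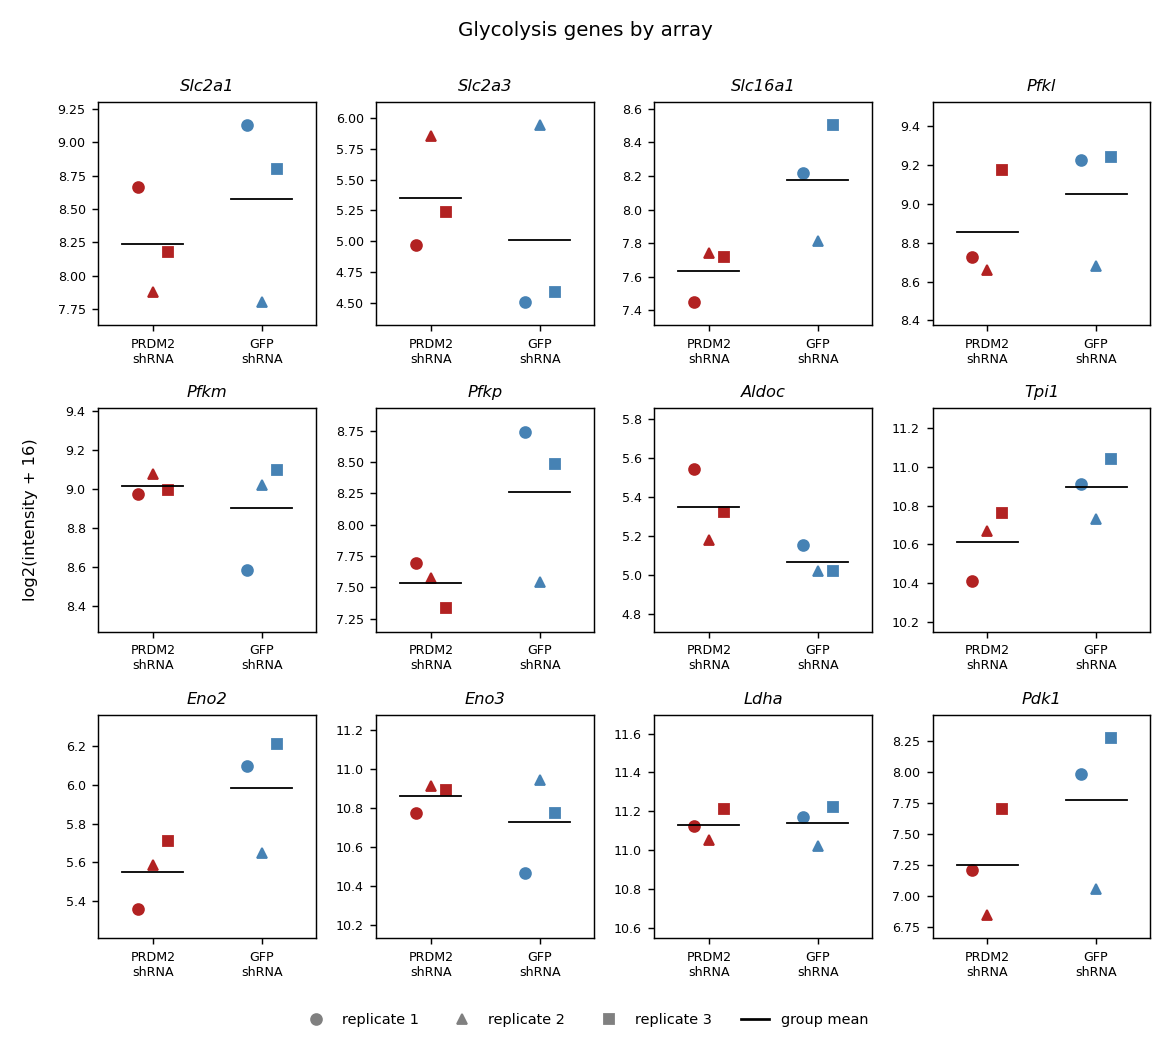
Log2(intensity + 16) of 12 glycolysis genes on each array, PRDM2 shRNA on the left and GFP shRNA on the right of each panel, with a symbol for each replicate number and a line at the group mean. The vertical scales differ between panels. Triangles (replicate 2) of both groups lie close together in every panel, and Slc16a1 and Aldoc are the panels without overlap.

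Enolase, the enzyme before pyruvate kinase, is encoded by a broadly expressed gene (Eno1, not measured here), a neuronal-type gene (Eno2) and a muscle gene (Eno3). Eno2 read 25.1, 32.1 and 36.3 units in knockdown replicates 1, 2 and 3, against 52.4, 34.1 and 58.0 in control replicates 1, 2 and 3. Control replicates 1 and 3 exceeded every knockdown array, and control replicate 2 did not. Knockdown minus control came to a log2 difference of -0.43 (SE 0.17, 95% interval -0.84 to -0.03, adjusted p = 1.00) with all arrays, -0.60 (SE 0.13, adjusted p = 0.088) without control replicate 2 and -0.62 (SE 0.11, adjusted p = 0.034) in the paired fit without both arrays numbered 2. Leaving out control replicate 3 shrank the difference to -0.32.

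Eno3 read 1735, 1917 and 1884 units in knockdown replicates 1, 2 and 3, against 1397, 1956 and 1735 in control replicates 1, 2 and 3, a log2 fold change of 0.13 (SE 0.13) that shrank to 0.0007 without control replicate 1. Pgam2, the muscle phosphoglycerate mutase, read 312, 309 and 456 units in knockdown replicates 1, 2 and 3, against 233, 289 and 424 in control replicates 1, 2 and 3. Its log2 fold change was 0.20 (SE 0.24), and each knockdown array lay above the control array of its number. Without control replicate 1 it was 0.01, without knockdown replicate 3 it was 0.02, and without control replicate 3 it was 0.42. The average of the muscle marker list was lowest on control replicate 1, although 1 of its genes, Myod1, was highest there. On that array 10 of the 32 members were lowest, namely Pfkm, Hk2, Eno3, Pgam2, Slc2a3, Egln1, Egln3, Vegfa, Ankrd37 and P4ha1. Control replicate 3 held the highest value of 15 members. The shares over all genes were not counted. Aldoa was lowest on knockdown replicate 1. The part of the muscle markers in these values was not tested.

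The remaining enzymes of the lower pathway had fold changes close to zero. Pgk1, phosphoglycerate kinase, stood at -0.11 (SE 0.08), Pkm, pyruvate kinase, at -0.07 (SE 0.10) and Pgam1, the broadly expressed mutase, at 0.0029 (SE 0.13). The sign of Pgam1 turned with the deposited scaling, to -0.04, and with median centring, to -0.04. Ldha, the lactate dehydrogenase subunit that favours lactate formation, read 2219, 2110 and 2359 units in knockdown replicates 1, 2 and 3, against 2294, 2067 and 2369 in control replicates 1, 2 and 3. Its groups differed by a log2 fold change of -0.0081 with a 95% interval from -0.22 to 0.20. Ldhb, the subunit of oxidative tissues, stood at 0.06 (SE 0.11), with all 4 of its probe sets between 0.05 and 0.06.

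Pdk1 encodes a pyruvate dehydrogenase kinase, which limits the oxidation of pyruvate in mitochondria. It read 132, 99.6 and 193 units in knockdown replicates 1, 2 and 3, against 238, 118 and 294 in control replicates 1, 2 and 3. Each knockdown array was below the control array of its number, and across numbers the groups overlapped. On the log2 scale the groups differed by -0.52 (SE 0.35) with all arrays, -0.88 (SE 0.25, adjusted p = 0.18) without control replicate 2 and -0.67 (SE 0.10, adjusted p = 0.026) in the paired fit without both arrays numbered 2. Without control replicate 3 it shrank to -0.27 and without knockdown replicate 2 to -0.32. With the block over all 6 arrays it had the same fold change with an SE of 0.12 (adjusted p = 0.55). Probe sets of Pdk1 other than the brightest gave -0.44, -0.50 and, at most 12.4 units bright, -0.03.

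The oxygen sensors were led by Egln3. It read 347, 307 and 324 units in knockdown replicates 1, 2 and 3, against 129, 318 and 189 in control replicates 1, 2 and 3. The knockdown arrays lay close together, control replicates 1 and 3 lay below them and control replicate 2 lay among them. The fitted log2 change came to 0.67 (SE 0.28, 95% interval -0.0026 to 1.34, adjusted p = 1.00) with all arrays, 0.99 (SE 0.16, adjusted p = 0.045) without control replicate 2 and 1.03 (SE 0.15, adjusted p = 0.024) in the paired fit without both arrays numbered 2. It shrank to 0.39 without control replicate 1. The second probe set of Egln3 gave 0.43 (SE 0.17) with all arrays and 0.61 without control replicate 2.

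Egln1, the main oxygen-sensing hydroxylase, read 212, 200 and 231 units in knockdown replicates 1, 2 and 3, against 185, 201 and 196 in control replicates 1, 2 and 3, a log2 fold change of 0.13 (SE 0.08). Its second probe set gave 0.22 (SE 0.09). Hif1a, the regulated subunit of HIF-1, read 473, 607 and 613 units in knockdown replicates 1, 2 and 3, against 650, 553 and 706 in control replicates 1, 2 and 3. Its log2 fold change was -0.17 (SE 0.14), and 1 of its 4 probe sets, near the floor of the scale, pointed the other way. A dimmer probe set of Hif1a gave -0.19 (SE 0.11) without overlap between the groups, and another gave -0.17 (SE 0.21) with overlap. HIF-1 alpha is regulated mainly as a protein, which the arrays do not measure.

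None of the 8 hypoxia targets passed in any fit run, and their median log2 fold change was -0.02. Bnip3, a mitochondrial protein that promotes mitophagy, read 301, 306 and 436 units in knockdown replicates 1, 2 and 3, against 403, 280 and 484 in control replicates 1, 2 and 3 (log2 fold change -0.14, SE 0.23). Vegfa, the vascular growth factor, read 198, 164 and 159 units in knockdown replicates 1, 2 and 3, against 125, 177 and 191 in control replicates 1, 2 and 3. It stood at 0.09 (SE 0.16), and its sign turned without control replicate 1, to -0.08. P4ha2, a subunit of collagen prolyl 4-hydroxylase, stood at -0.15 (SE 0.13) with all arrays and at -0.30 (SE 0.09, adjusted p = 0.20) without control replicate 2.

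P4ha1, which encodes another isoform of the same subunit as P4ha2, stood at 0.0053 (SE 0.09) and turned to -0.02 with the deposited scaling and with median centring. Ddit4, an inhibitor of mTORC1 induced by stress and low oxygen, stood at 0.05 (SE 0.10). Car9, a membrane carbonic anhydrase that is a sensitive HIF target, read 1.1, 10 and 12.1 units in knockdown replicates 1, 2 and 3, against 6.9, 12.8 and 12.7 in control replicates 1, 2 and 3. Those values lie under the offset, so that a change could hardly be seen. The same holds for the vasodilator peptide gene Adm, whose brightest probe set read no more than 5.80 units. The second probe set of Adm, at most 8.80 units, gave -0.23 (SE 0.10) and did not overlap between the groups, its knockdown arrays being lower. Ankrd37, a small HIF target, stayed between 20.1 and 24.2 units.

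**Figure D3:**
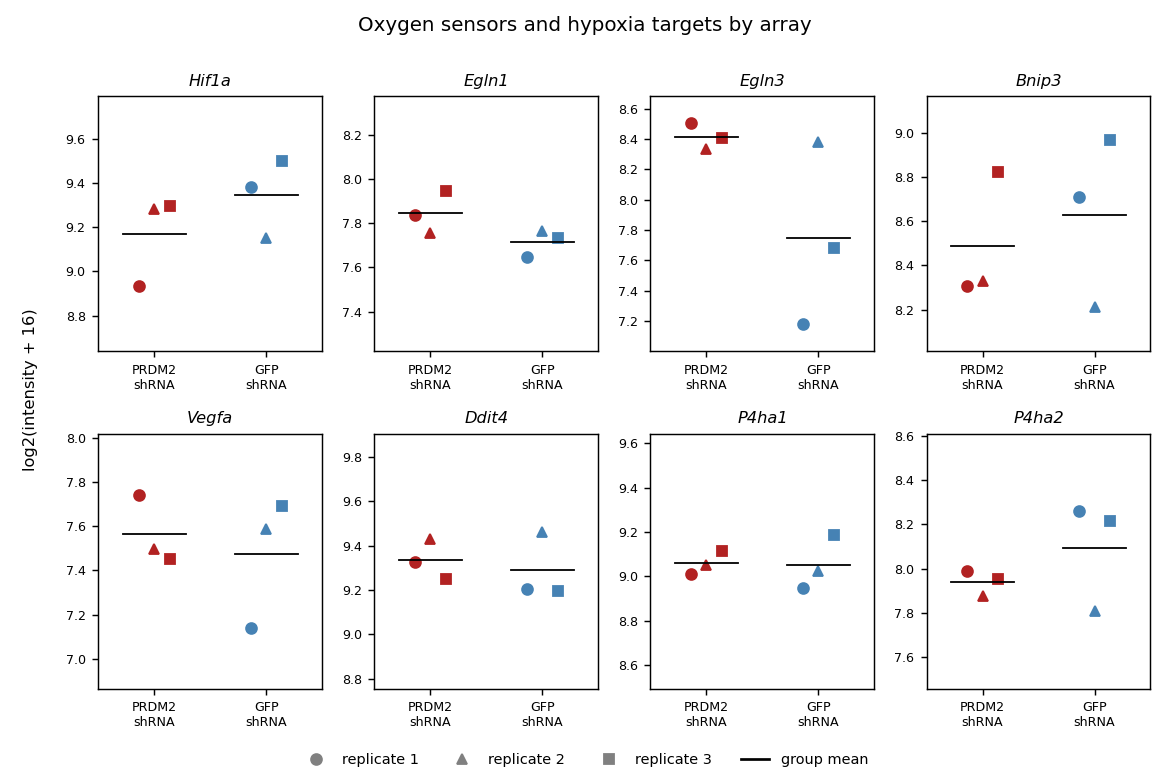
Log2(intensity + 16) of 3 oxygen sensing genes and 5 hypoxia targets on each array, PRDM2 shRNA on the left and GFP shRNA on the right of each panel, with a symbol for each replicate number and a line at the group mean. The vertical scales differ between panels. In Egln3 control replicates 1 and 3 lie below all knockdown arrays and control replicate 2 among them, and the hypoxia targets overlap.

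Set side by side by replicate number, the members differed in pairs 1 and 3 and hardly in pair 2. A log2 difference of at least 0.3 in either direction between the knockdown and the control array of the same number was present in 18 of 32 members for number 1, 0 for number 2 and 10 for number 3. Over all genes the shares were 22.9%, 1.46% and 12.9%, which were not matched for level. Only 6 of the 32 members lay under the level of the median gene, where the offset compresses differences. In pair 1 Egln3 differed most, at 1.33, and in pair 3 Pfkp, at -1.15, while the widest difference of pair 2 was that of Pdk1, at -0.21. Medians of the glycolysis list were -0.18, -0.0026 and -0.07 for numbers 1, 2 and 3, and those of the hypoxia list were 0.06, -0.0091 and -0.07. Over all genes the medians were -0.025, 0.0013 and 0.0065. The median of the hypoxia list thus had opposite signs in pairs 1 and 3, close to zero in both. Of its members only Vegfa, Ankrd37 and P4ha1 changed sign between those pairs.

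**Figure D4:**
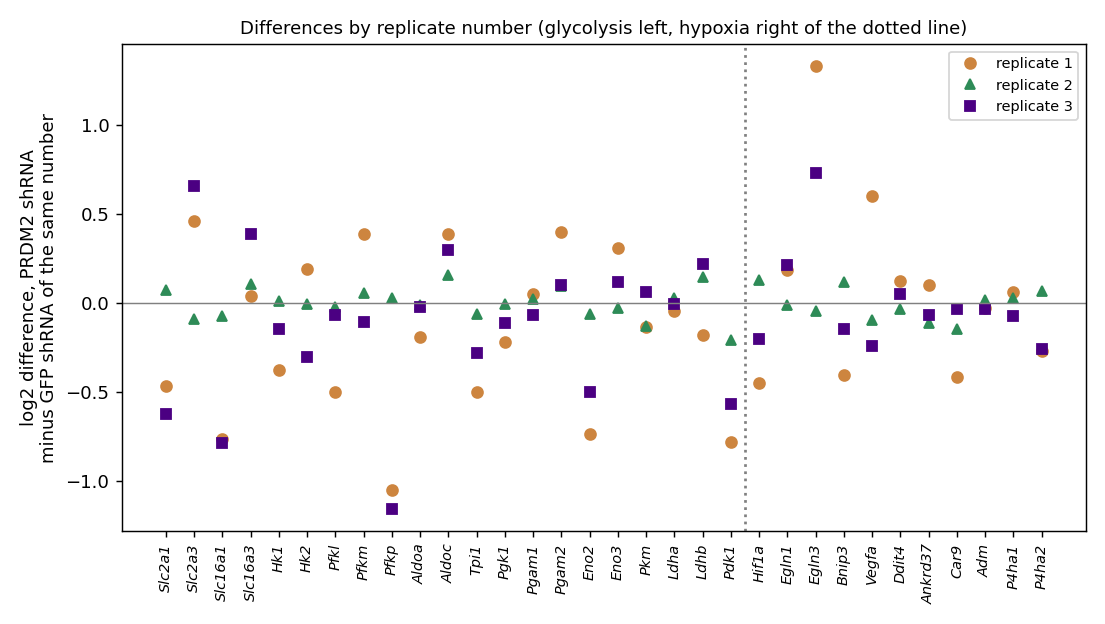
Log2 difference between the PRDM2 shRNA and the GFP shRNA array of the same replicate number for each of the 32 members, with circles for number 1, triangles for number 2 and squares for number 3. Triangles stay within 0.21 of zero, while circles and squares reach 1.33 for Egln3 and -1.15 for Pfkp.

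The further probe sets of the members mostly pointed the same way as the brightest. Of 34 such probe sets, in 18 genes, 31 had the sign of the brightest with all arrays, and 29 without control replicate 2. The 3 exceptions with all arrays belonged to Pfkl, Aldoa and Hif1a, at 0.02, 0.05 and 0.09. Of all 66 probe sets 18 had a mean under that of the median gene, where the offset compresses differences.

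Other genes of the same pathways were read from 2 longer lists. Among 24 measured genes of glucose and pyruvate metabolism none passed with all arrays or without control replicate 2, and none had an unadjusted p under 0.05 with all arrays. Their median log2 fold change was 0.0088, with 13 on the higher and 11 on the lower side. The smallest p-values belonged to Pdhb, a subunit of pyruvate dehydrogenase, at -0.17 (SE 0.10), Tigar, a fructose bisphosphatase, at -0.27 (SE 0.19), and Pdp1, which activates pyruvate dehydrogenase, at 0.26 (SE 0.20).

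Among 28 other measured hypoxia genes 0 passed with all arrays, and 14 lay on each side, with a median of 0.0024. Without control replicate 2, 1 rose and 1 fell, against 0.896% and 0.698% of all genes. The paired fit without both arrays numbered 2 called 2 higher (Bhlhe40 and Lox) and 1 lower (Cited2), against 2.27% and 1.69% of all genes. Cited2, which competes with HIF-1 alpha for the coactivator CBP/p300, read 8.36, 8.67 and 8.59 log2 units in knockdown replicates 1, 2 and 3, against 9.48, 8.69 and 9.31 in control replicates 1, 2 and 3. All control arrays lay above all knockdown arrays, although both arrays numbered 2 nearly met. Of the 28 genes 2 (Cited2 and Narf) did not overlap in this direction and 0 in the other, against 4.24% and 2.93% of all genes. The log2 fold change of Cited2 was -0.62 (SE 0.21, adjusted p = 1.00) with all arrays and -0.86 (SE 0.12, adjusted p = 0.035) without control replicate 2. Bhlhe40, a transcriptional repressor induced by hypoxia, read 8.39, 8.30 and 7.76 log2 units in knockdown replicates 1, 2 and 3, against 6.87, 8.24 and 7.02 in control replicates 1, 2 and 3. Its groups differed by a log2 fold change of 0.77 (SE 0.38) with all arrays and 1.20 (SE 0.20, adjusted p = 0.047) without control replicate 2. Mxi1, an antagonist of Myc, and Ndrg1, a stress-response gene, stood at -0.49 (SE 0.18) and -0.35 (SE 0.16) with all arrays, neither past the threshold in any of these fits.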

How the data were processed

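Total RNA taken up in Trizol gave biotinylated cRNA (8 ug RNA per sample), per the labels' protocols, for 1 Affymetrix mouse array each. The authors deposited a linear intensity per probe set. GCOS and PLIER appear in the submitters' processing notes without versions, and how arrays were normalized was not given in the sources used here. Of 45101 probe sets, 64 controls were left out, as were 4 of Gngt1 that held the number 14699 in control replicate 2 and at most 5.18 elsewhere, leaving 45033. Gene names came from the platform annotation. Quartiles of log2(intensity + 16) ranged by up to 0.15 between arrays, above the 0.1 set for keeping the deposited scaling, so arrays were quantile normalized. A gene was its brightest probe set of its own (18192 genes).

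The test was limma 3.58.1 (R 4.3.3), two-sided, with Benjamini-Hochberg adjustment over all genes at 0.05, on values normalized over 6 arrays, also where arrays were left out. The limma steps were tested on simulated data with independent noise of the same size for every gene. Since those data held no pairing and no array that stood apart, they do not test the fits on these arrays. Deviations of same-numbered arrays from their group means correlated at 0.34, 0.59 and 0.66 (18192 genes), so the replicate number was also used as a block. This pairing comes from the data. The labels call the arrays biological replicates and name no cultures, so p-values measure the spread between these samples.

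Named with a value on every array, as a rule, were members without overlap or with an unadjusted p under 0.05, members past the threshold in any fit, the 3 widest changes per list and a fixed set of isoforms. From that fixed set Pgam1, Pkm and Ldhb were given by fold change only, and Eno1 was not measured. The members and lists were chosen with earlier results of these data known. Alternatives were other scalings, offsets of 1 and 64, a filter on dim genes, other uses of probe sets, other variance models, the block and leaving out arrays.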

Additional observations from a re-analysis of the deposited data

How the results depend on the processing

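With all 6 arrays 0 of 18192 genes and 0 of 32 members passed the threshold in limma, with 600 genes and 4 members at an unadjusted p under 0.05. The fits with the replicate block, the other scalings, the offsets, the filter, the uses of probe sets and the variance models gave 0 calls too. Leaving out 1 array gave between 0 and 290 genes and between 0 and 2 members, and every call came from the fit without control replicate 2. Without both arrays numbered 2 there were 114 genes and 0 members, and with the replicate block 721 genes and 7 members. Over these settings the median log2 fold change ran from -0.10 to -0.03 for the glycolysis list and from -0.07 to 0.03 for the hypoxia list. Leaving out both arrays numbered 1 or both numbered 3, added after seeing the data, gave 0 calls each. Signs turned only in members whose fold change was within 0.20 of zero, and the cause was not tested. Leaving out 1 array gave log2 fold changes from -0.044 to 0.21 for Pfkm, -0.066 to 0.032 for Ldha, -0.078 to 0.20 for Vegfa, -0.047 to 0.072 for P4ha1, -0.19 to 0.063 for Hk2, -0.10 to 0.098 for Pgam1, -0.35 to 0.026 for Bnip3, -0.074 to 0.0033 for Ankrd37, -0.035 to 0.014 for Adm, -0.34 to 0.020 for Car9, -0.0009 to 0.13 for Ddit4 and -0.0080 to 0.16 for Ldhb. The same ranges were -0.38 to -0.099 for Pfkl, -0.28 to -0.10 for Hk1, -0.27 to -0.053 for Hif1a, 0.080 to 0.18 for Egln1 and -0.30 to -0.071 for P4ha2, the widest of each but Egln1 without control replicate 2. With the deposited scaling the values were -0.041 for Pgam1 and -0.021 for P4ha1. With median centring the values were -0.042 for Pgam1 and -0.023 for P4ha1. With array weights the values were -0.063 for Pgam1, -0.019 for Vegfa and -0.045 for P4ha1. Without both arrays numbered 2, with or without the replicate block, the values were -0.0082 for Pgam1, 0.019 for Ankrd37 and -0.0055 for P4ha1. Without both arrays numbered 1 the values were -0.023 for Pfkm, -0.022 for Pgam1, 0.011 for Ldha, -0.17 for Vegfa and -0.022 for P4ha1. Without both arrays numbered 3 the values were 0.093 for Hk2 and -0.018 for Ldhb. Dim members (Car9, Adm, Slc16a3 and others under the median gene) limit what can be seen, since their signal is close to the background of the scale.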
